A study of Mus musculus with 8 samples.

Results

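The 10 genes described here encode the leukaemia inhibitory factor (LIF) and interleukin-6 (IL-6) cytokine pathway. They are the ligands Lif, Il6 and Il11, the receptor chains Lifr, Osmr, Il6ra and Il6st, the kinase Jak1, the transcription factor Stat3 and the feedback inhibitor Socs3. They were taken by gene symbol, and all 10 were found among the 24787 rows of the deposited table. The cells were 4T1, a mouse mammary carcinoma line grown in culture, whose RNA was sequenced in 8 libraries. In 4 libraries the cells carried an shRNA against Etv5 (construct sh2, genotype given as Etv5 knockdown). In the other 4 they carried a control shRNA (construct NT, genotype given as WT). Etv5 encodes an ETS-family transcription factor, and the study asks whether ETV5 in the tumour cell promotes immune evasion mediated by myeloid-derived suppressor cells (MDSCs), so the comparison asks whether the cytokine transcripts of the tumour cell differ between these groups. Each group holds a single construct, and no label says that replicates were separate cultures, so p-values measure the spread between these libraries, which may be technical.

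Cytokines of this family bind a specific receptor chain and then engage the shared signal transducer gp130, encoded by Il6st. LIF uses LIFR, oncostatin M uses OSMR or LIFR, and IL-6 uses IL-6Rα, encoded by Il6ra. The receptors activate Janus kinases, JAK1 above all, which phosphorylate STAT3. STAT3 then induces genes that include Socs3, whose product binds gp130 and JAK and dampens the signal. In mammary tumours the pathway is known for links to growth, survival and the recruitment of myeloid cells.

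Lif and Il11 were the genes of the pathway most clearly lower in Etv5 shRNA libraries, and Socs3 the only other tested one whose groups did not overlap over all 8 libraries. The promoters of these genes are shown so that their sequence can be set beside the values. They are RefSeq windows on the GRCm38.p6 assembly, on the coding strand, from 250 bases before to 50 after the annotated start. They lie at chr11:4257318-4257617 (plus strand) for Lif, chr7:4778092-4778391 (minus strand, the second of 2 Il11 windows) for Il11 and chr11:117969317-117969616 (minus strand) for Socs3. Capitals mark matches to 3 motifs searched on both strands. These are the STAT motif TTCNNNGAA, the AP-1 motif TGANTCA and the NF-kB motif, none of which overlap each other here.
Lif: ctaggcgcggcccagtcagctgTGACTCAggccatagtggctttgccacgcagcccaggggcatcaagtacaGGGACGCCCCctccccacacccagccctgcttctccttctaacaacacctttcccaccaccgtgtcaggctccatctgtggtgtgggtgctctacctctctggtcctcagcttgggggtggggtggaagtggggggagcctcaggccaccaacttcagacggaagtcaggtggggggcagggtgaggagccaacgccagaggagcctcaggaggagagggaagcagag
Il11: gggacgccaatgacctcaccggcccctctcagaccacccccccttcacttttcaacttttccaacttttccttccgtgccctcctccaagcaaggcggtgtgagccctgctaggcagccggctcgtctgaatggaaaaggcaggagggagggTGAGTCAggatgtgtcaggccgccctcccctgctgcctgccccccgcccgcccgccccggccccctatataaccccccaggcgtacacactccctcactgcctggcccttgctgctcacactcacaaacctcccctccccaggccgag
Socs3: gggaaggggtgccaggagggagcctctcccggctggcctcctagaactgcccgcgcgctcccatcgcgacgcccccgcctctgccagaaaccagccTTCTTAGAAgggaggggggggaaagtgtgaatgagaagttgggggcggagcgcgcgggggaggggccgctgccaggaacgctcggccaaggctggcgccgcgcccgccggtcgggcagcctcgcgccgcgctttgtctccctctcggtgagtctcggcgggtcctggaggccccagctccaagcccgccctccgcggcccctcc

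The Lif window held an AP-1 match starting 228 bases and an NF-kB match starting 178 bases before the start site. The Il11 window shown held an AP-1 match at 98 bases before the start, and the first Il11 window, not shown, held none of the marked motifs. The Socs3 window held a STAT match at 154 bases before the start. Il6, with an AP-1 and an NF-kB match, and Osmr, with an AP-1 match, were the other genes of the pathway with any of these motifs. The ETS motif CCGGAAGT was in no window of the 10 genes. It was searched only in these exact letters, so other forms of an ETS site were not looked for. The Lif window holds acggaagt, which differs from it in the first letter, and the Il6ra window holds caggaagt, which differs in the second. Such near forms were not searched for, and their share over all windows was not computed. Over 32851 promoter windows of the same length, 8.3% held the STAT motif, 7.81% the AP-1 motif, 8.46% the NF-kB motif and 3.89% the ETS motif. A match is a description of these letters and does not show that a factor binds there.

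The numbers behave as mean coverage of a gene per base, scaled to library depth (here a coverage value), although how they were averaged is not given in the sources used here. Levels are compared between genes on that reading. Library totals ranged from 254792 to 390495. The third Etv5 shRNA library stood apart, with the highest total, the fewest genes above 0 (13920, against 15126 to 15379 in the other 7 libraries) and 21.7% of its total in ribosomal protein genes (7.85% to 11.9% in the others). Its deviation followed transcript length. Among the 25% of tested genes with the longest transcripts, from 4682 bases up, its median ratio to the mean of its other 3 group members was 0.353, against 1.42 in the shortest 25%. Control replicate 3 deviated the same way to a smaller degree, at 0.735 and 1.26. Of the 10 genes, 6 are in this longest 25%. Results are therefore given over 8 libraries, without Etv5 shRNA replicate 3, and without replicate 3 of both groups. The plan named as main fits only those over 8 libraries and without Etv5 shRNA replicate 3. The fit that also leaves out control replicate 3 was placed beside them in view of this deviation. Of the fits without Etv5 shRNA replicate 3 and a further library, it called the most genes (1045).

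In Etv5 shRNA replicate 3 the receptor transcripts were the furthest below the rest of their group, apart from Il6, which was at 0. Il6ra, with a longest transcript of 8639 bases, stood at 0.0511 of the mean of the other 3 libraries, Il6st (8678 bases) at 0.160, Lifr (9655 bases) at 0.202 and Osmr (5491 bases) at 0.221. Jak1, Lif and Stat3 lay at 0.278, 0.360 and 0.365. Socs3 (2552 bases) lay at 0.758 and Il11 (1949 bases) at 1.09. In control replicate 3, Il6st stood at 0.408, Il6ra at 0.485, Lifr at 0.501 and Osmr at 0.574, Il6 at 0.488, while Lif, Jak1, Stat3, Socs3 and Il11 lay between 0.790 and 1.03. The long receptor transcripts were thus low in the third library of either group, and Il11 was not.

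**Figure D1:**
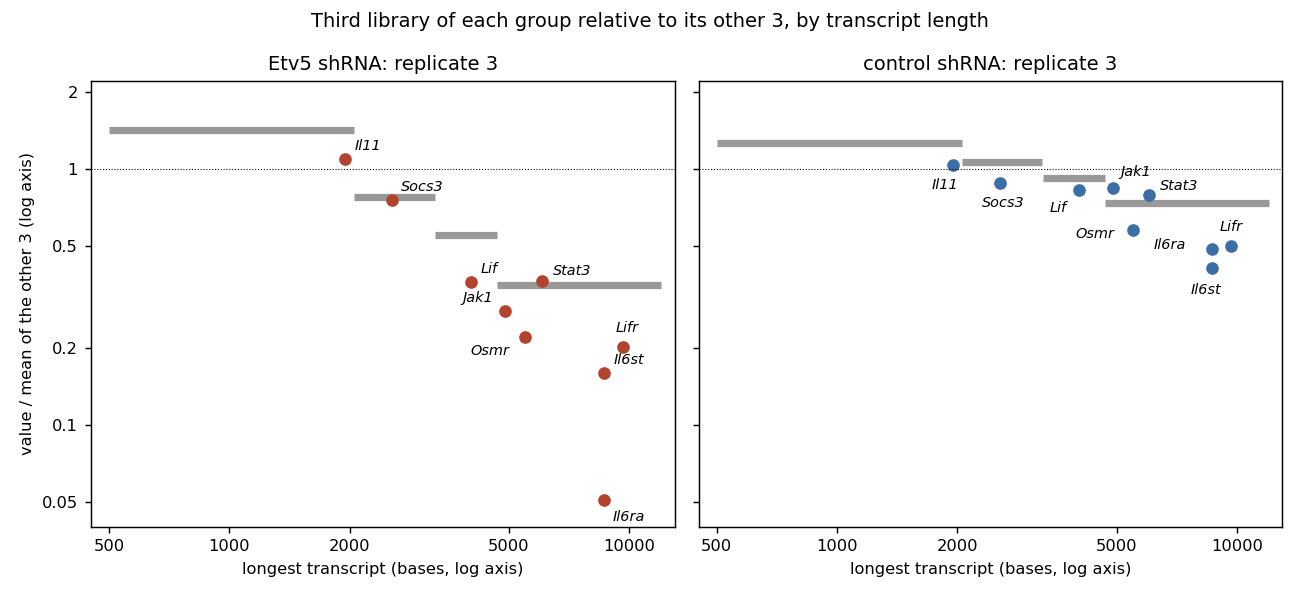
Value of each gene in replicate 3 divided by the mean of the other 3 libraries of its group (vertical log axis), against the length of its longest transcript in bases (horizontal log axis), for Etv5 shRNA (left) and control shRNA (right). Grey bars give the median ratio of all tested genes in each 25% of genes by transcript length, 0.353 and 0.735 for the longest, with their ends cut at the axis. Il6, at 0 in Etv5 shRNA replicate 3, is left out.

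The targeted gene, Etv5, was not called lower in any of the 3 fits. Etv5 stood at 13.0, 11.2, 7.52 and 12.7 in Etv5 shRNA replicates 1 to 4, against 15.2, 15.1, 11.7 and 14.4 in control replicates 1 to 4, so the groups overlapped. Without replicate 3 of both groups they did not overlap, as for 16.4% of all tested genes, and Etv5 was 17.2% lower (12.3 against 14.9). Its log2 fold change was -0.33 (adjusted p 0.819 by limma) over 8 libraries, -0.17 (0.422) without Etv5 shRNA replicate 3 and -0.26 (0.0675) without replicate 3 of both groups. Of 32 settings, Etv5 was called lower in 1, array quality weights over 8 libraries (-0.19, adjusted p 0.0392 by limma). Its longest transcript shares 26.8% of its 50-base stretches with Gm4798. Epithelial markers were present, 8 of 8, with summed values of 1360 to 3180 in Etv5 shRNA and 1340 to 1820 in control libraries. Leukocyte markers, 9 of 12 above 0, summed to 6.44 to 7.84 in Etv5 shRNA and 7.73 to 10.1 in control libraries, with Cd3e, Adgre1 and Tyrobp at 0. Fibroblast markers, 7 of 9 above 0, summed to 1.15 to 4.16 in Etv5 shRNA and 3.54 to 4.43 in control libraries, with Dcn and Lum at 0. Endothelial markers, 5 of 6 above 0, summed to 0 to 0.125 in Etv5 shRNA and 0.0236 to 0.0829 in control libraries, with Emcn at 0. Of the fibroblast list, Pdgfra was lower and Postn higher without Etv5 shRNA replicate 3 (adjusted p 0.0452 and 0.0170 by limma), and of the epithelial list Cdh1 was higher (0.00455). The part of these markers in the results was not tested. In RNA of whole cultures, fewer cells that make a transcript and less of it per cell cannot be told apart.

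In control cells transcripts of ligands, receptor chains, kinase, transcription factor and feedback inhibitor were present, with Lifr and Il6 near 0. Whether the pathway was active was not measured. Jak1 averaged 15.8 ± 1.37, Lif 14.9 ± 1.62, Il6st 12.7 ± 4.62, Stat3 8.62 ± 1.09 and Socs3 7.26 ± 0.541 (coverage values, SD, n = 4). Il6ra averaged 5.06 ± 1.63, Osmr 2.27 ± 0.625 and Il11 1.38 ± 0.170. Il6 and Lifr were near the bottom of the scale, both at 0.0658 (SD 0.0333 for Il6 and 0.0194 for Lifr). The control ranges of Jak1 and Lif, Lif and Il6st, Il6st and Stat3, Stat3 and Socs3, Il6ra and Osmr, and Osmr and Il11 overlapped, while those of Socs3 and Il6ra, and of Il11 and the pair at the bottom, did not. Lif ranked above 78.3% of the genes detected in any library, whereas Lifr, the chain that LIF binds besides gp130, ranked above 22.7%. When replicate 3 was left out, the order in Etv5 shRNA cells was Jak1 (18.2), Il6st (10.3), Lif (9.0), Stat3 (7.96), Socs3 (5.62), Il6ra (3.58), Osmr (1.51), Il11 (0.756), Lifr (0.0771) and Il6 (0.0125), and Lif ranked above 68.2% of genes.

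**Figure D2:**
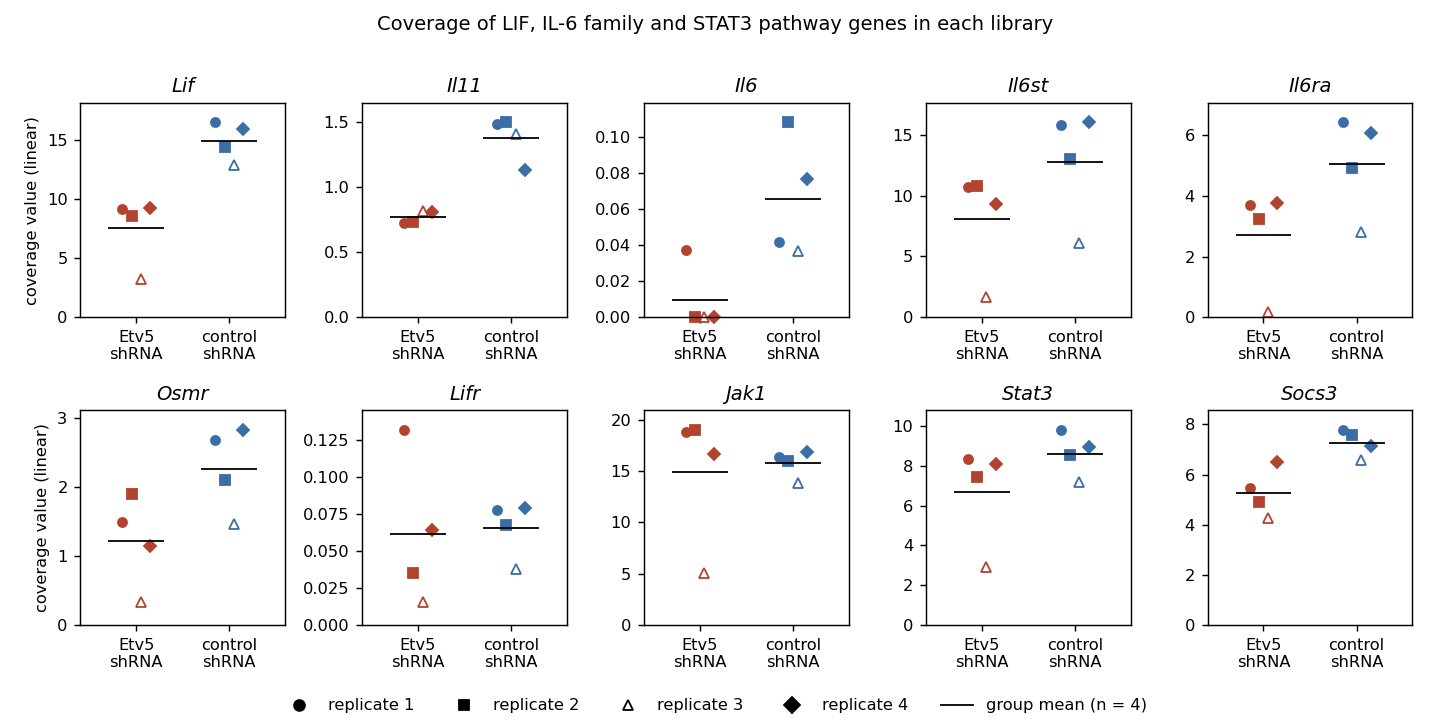
Coverage value (linear axis from 0, its own scale for each gene) in each of the 4 Etv5 shRNA libraries (red, left) and 4 control shRNA libraries (blue, right), with a marker shape for each replicate number and a line at the group mean. Lif, Il11 and Socs3 show no overlap between groups, and the open triangles of replicate 3 are lowest for most long transcripts, at 1.64 in Etv5 shRNA and 6.09 in control cells for Il6st.

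Of the 10 genes, 8 passed the filter on low values, at 0.5 or more in at least 4 libraries, and were tested with limma among 11731 genes. Over all 8 libraries none was called at an adjusted p under 0.05, where 0.486% of all tested genes were called lower and 0.00852% higher. All 8 had negative log2 fold changes, as did 69% of all tested genes. Their median was -0.51, against -0.11 for all tested genes. With Etv5 shRNA replicate 3 left out, Lif and Il11 were called lower and 6 were not called, where 2.05% of all tested genes were lower and 1.08% higher. The median of the 8 was then -0.34, against 0 for all genes. Without replicate 3 of both groups, 6 of the 8 were called lower (Lif, Il11, Il6ra, Il6st, Osmr and Socs3), none higher, and Jak1 and Stat3 were not called, where 5.33% of all tested genes were lower and 3.58% higher. The median was -0.46, against -0.01 for all genes. Leaving out Etv5 shRNA replicate 3 together with any 1 of the other 6 libraries gave 0 to 2 lower genes of the pathway, so among these omissions the count of 6 was seen only for control replicate 3. With all 8 libraries kept and array quality weights, the same 6 genes were called lower, where 14.2% of all tested genes were lower. Groups did not overlap, with Etv5 shRNA lower, in 3 of the 8 over 8 libraries (7.58% of all tested genes), in 3 without Etv5 shRNA replicate 3 (10.4%) and in 7 without both (16.4%).

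**Figure D3:**
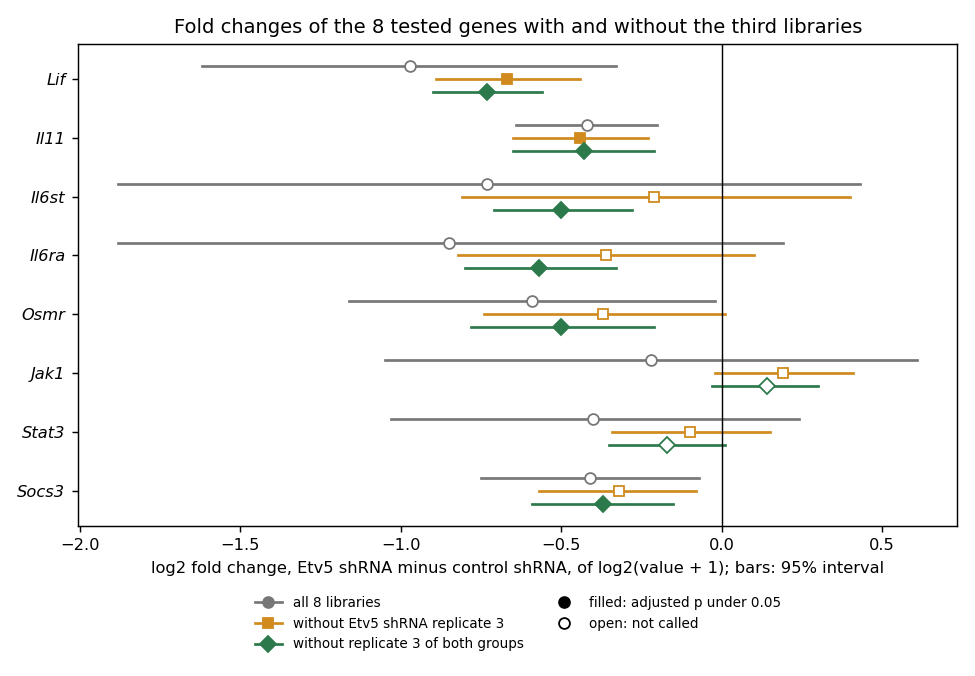
Log2 fold change (Etv5 shRNA minus control shRNA) on the log2(value + 1) scale, with its 95% interval from limma, for the 8 tested genes over all 8 libraries (grey circles), without Etv5 shRNA replicate 3 (orange squares) and without replicate 3 of both groups (green diamonds). Filled symbols are called at an adjusted p under 0.05; Lif and Il11 are filled in the last 2 fits, and Jak1 moves from -0.22 to 0.19 when Etv5 shRNA replicate 3 is left out.

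Of the 10 genes, Lif was called in the most settings. Its gene is on the plus strand of chromosome 11 (4257557 to 4272514, mm10, as are all gene positions here). Its coverage value was 9.17, 8.58, 3.24 and 9.27 in Etv5 shRNA replicates 1 to 4, against 16.5, 14.4, 12.9 and 15.9 in control replicates 1 to 4. Every Etv5 shRNA library lay below every control library, and replicate 3 was the lowest in each group. Lif fell by 39.7% without Etv5 shRNA replicate 3, to 9.0 ± 0.371 (SD, n = 3), against 14.9 ± 1.62 (SD, n = 4) in control cells. The log2 fold change was -0.67 (95% interval -0.89 to -0.44, adjusted p 0.00854 by limma). Over 8 libraries it was -0.97 (interval -1.62 to -0.33, adjusted p 0.368), and without replicate 3 of both groups -0.73 (adjusted p 0.000582). The larger change over 8 libraries thus had the wider interval. An exact two-sided permutation test of the deposited values gave p = 0.0286 over 70 assignments, the smallest possible. Any gene whose groups do not overlap over the 8 libraries gets this p, so it restates the lack of overlap. Ranked by log2 fold change among 11731 genes, Lif was the 76th lowest over 8 libraries and the 127th lowest without Etv5 shRNA replicate 3. Il6ra and Il6st ranked 116th and 183rd lowest over 8 libraries, but 690th and 1998th without Etv5 shRNA replicate 3. Over 8 libraries Lif was called when the trend of each library with transcript length was removed (log2 fold change -0.82, adjusted p 0.0421 by limma). From this 7-library fit the call was lost with equal sums (adjusted p 0.0615 by limma) or when Etv5 shRNA replicate 1 (0.0557) or 2 (0.0624) was omitted too.

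Ratios within a library do not depend on how the libraries were scaled to each other. The ratio of Lif to Stat3 was 1.1, 1.15, 1.12 and 1.14 in Etv5 shRNA replicates 1 to 4, against 1.68, 1.69, 1.79 and 1.78 in control replicates 1 to 4. It was nearly the same in all libraries of a group, the third ones included. The ratio of Lif to Jak1 was 0.488, 0.45, 0.642 and 0.556 in Etv5 shRNA and 1.01, 0.899, 0.936 and 0.945 in control libraries. The ratio of Il6st to Jak1 was 0.568, 0.57, 0.325 and 0.556 in Etv5 shRNA and 0.966, 0.808, 0.442 and 0.947 in control libraries. Its groups overlapped, and the third library was the lowest in each, so such ratios can still hold the deviation of these libraries. All these ratios were chosen after the values were seen and were not tested. Those of Lif show an unequal change of the genes, not which of them changed.

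Il11, the ligand of the IL-11 receptor, was lower at a low level. Its gene is on the minus strand of chromosome 7 (4772373 to 4782859). Its values were 0.727, 0.735, 0.821 and 0.807 in Etv5 shRNA replicates 1 to 4, against 1.49, 1.5, 1.41 and 1.13 in control replicates 1 to 4. The groups did not overlap, and replicate 3 was not apart from the rest in either. Il11 averaged 0.756 ± 0.0441 (SD, n = 3) without Etv5 shRNA replicate 3, against 1.38 ± 0.170 (SD, n = 4) in control cells, 45.3% lower. The log2 fold change was -0.44 (interval -0.65 to -0.23, adjusted p 0.0389 by limma), on a scale that understates the change of a gene at this level. Over 8 libraries it was -0.42 (adjusted p 0.169), and the exact two-sided permutation p was 0.0286. In the 7-library fit this call was lost on omitting control replicate 1, control replicate 2 or any further Etv5 shRNA library (adjusted p 0.0893 to 0.179 by limma), and with equal sums, quantile normalisation or the replicate block (0.0752 to 0.0896). Of its 50-base stretches, 3.42% also occur in transcripts of other genes.

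Il6 was barely detected. It was listed at 0.0376, 0, 0 and 0 in Etv5 shRNA replicates 1 to 4, against 0.0417, 0.108, 0.0368 and 0.0766 in control replicates 1 to 4. One Etv5 shRNA library exceeded the lowest control, and the gene lay under the filter, so no fold change is given. The exact two-sided permutation p was 0.0571. The Il6 gene is on the plus strand of chromosome 5 (30013114 to 30019981).

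Among the receptor chains, Il6st, Il6ra and Osmr had lower means in Etv5 shRNA cells, and their calls rested on the third libraries. Il6st, which encodes gp130 (chromosome 13, from 112464070 to 112510086, plus strand), was at 10.7, 10.8, 1.64 and 9.27 in Etv5 shRNA replicates 1 to 4, against 15.8, 13.0, 6.09 and 16.0 in control replicates 1 to 4. Control replicate 3 lay below 3 of the Etv5 shRNA libraries, so the groups overlapped, and they did not overlap without the third libraries. Il6st fell by 31.1% there, to 10.3 ± 0.867 in Etv5 shRNA against 14.9 ± 1.70 in control cells (SD, n = 3 each; log2 fold change -0.50, adjusted p 0.0140 by limma). It was not called over 8 libraries (-0.73, interval -1.88 to 0.43, adjusted p 0.876 by limma) or without Etv5 shRNA replicate 3 (-0.21, adjusted p 0.713).

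Il6ra, the IL-6 binding chain (chromosome 3, from 89864059 to 89913196, minus strand), was at 3.70, 3.26, 0.183 and 3.78 in Etv5 shRNA replicates 1 to 4, against 6.43, 4.91, 2.82 and 6.09 in control replicates 1 to 4. Again only control replicate 3 reached into the range of the Etv5 shRNA libraries. Without replicate 3 of both groups Il6ra fell by 38.3%, to 3.58 ± 0.283 against 5.81 ± 0.800 in control cells (SD, n = 3 each; log2 fold change -0.57, adjusted p 0.0111 by limma). It was at -0.85 (adjusted p 0.810 by limma) over 8 libraries and at -0.36 (0.386) without Etv5 shRNA replicate 3. With replicate number as a block in the 7-library fit it was called lower, at -0.57 (adjusted p 0.0313 by limma). A 242-base stretch of its exons, 2.8% of them, overlaps the gene Gm42809 on the opposite strand, and the sources used here do not say that reads were assigned by strand.

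Osmr, the oncostatin M receptor chain (chromosome 15, from 6813577 to 6874969, minus strand), was at 1.49, 1.90, 0.335 and 1.15 in Etv5 shRNA replicates 1 to 4, against 2.68, 2.10, 1.46 and 2.83 in control replicates 1 to 4. Of the control libraries, 3 lay above every Etv5 shRNA library. Without replicate 3 of both groups it fell by 40.4%, to 1.51 ± 0.375 against 2.53 ± 0.386 in control cells (SD, n = 3 each; log2 fold change -0.50, adjusted p 0.0420 by limma). It was at -0.59 (adjusted p 0.678 by limma) over 8 libraries and at -0.37 (0.274) without Etv5 shRNA replicate 3. With the length and GC trend removed and Etv5 shRNA replicate 3 left out, Osmr and Il6ra were called lower as well (adjusted p 0.0301 and 0.0275 by limma), and Il6st was not.

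Lifr (chromosome 15, from 7090614 to 7197489, plus strand) was near 0 throughout, at 0.132, 0.0350, 0.0156 and 0.0646 in Etv5 shRNA replicates 1 to 4, against 0.0780, 0.0680, 0.0376 and 0.0794 in control replicates 1 to 4. The control range lay within the Etv5 shRNA range, and the exact two-sided permutation p of the log2(value + 1) values was 0.8. Lifr lay under the filter.

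The kinase and the transcription factor were not called in any of the 3 fits. Jak1 (chromosome 4, from 101152367 to 101265282, minus strand) was at 18.8, 19.0, 5.05 and 16.7 in Etv5 shRNA replicates 1 to 4, against 16.4, 16.0, 13.8 and 16.9 in control replicates 1 to 4. Its direction turned with Etv5 shRNA replicate 3, at -0.22 on the log2 scale (adjusted p 0.891 by limma) with it and 0.19 (interval -0.02 to 0.41, adjusted p 0.311) without it. Stat3 (chromosome 11, from 100885098 to 100939540, minus strand) was at 8.32, 7.45, 2.91 and 8.10 in Etv5 shRNA replicates 1 to 4, against 9.80, 8.54, 7.18 and 8.93 in control replicates 1 to 4. Control replicate 3 was within the Etv5 shRNA range, and without replicate 3 of both groups the libraries did not overlap. Its log2 fold change was -0.40 (adjusted p 0.876 by limma) over 8 libraries and -0.10 (interval -0.34 to 0.15, adjusted p 0.662) without Etv5 shRNA replicate 3. Without replicate 3 of both groups Stat3 was at -0.17 (interval -0.35 to 0.01, adjusted p 0.216 by limma) and Jak1 at 0.14 (0.286). The coverage table measures transcripts, so the phosphorylation of STAT3 was not measured.

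Socs3, the feedback inhibitor (chromosome 11, from 117966079 to 117970047, minus strand), was at 5.46, 4.89, 4.26 and 6.51 in Etv5 shRNA replicates 1 to 4, against 7.78, 7.59, 6.57 and 7.13 in control replicates 1 to 4. The groups did not overlap, but the highest Etv5 shRNA value and the lowest control value were nearly equal. The exact two-sided permutation p was 0.0286, the smallest possible, as for any gene whose groups do not overlap. By limma it was not called over 8 libraries (log2 fold change -0.41, interval -0.75 to -0.07, adjusted p 0.555) or without Etv5 shRNA replicate 3 (-0.32, adjusted p 0.140). It was called lower without replicate 3 of both groups, at 5.62 ± 0.817 in Etv5 shRNA against 7.5 ± 0.336 in control cells (SD, n = 3 each; log2 fold change -0.37, adjusted p 0.0474). Socs3 had the shortest transcript of the genes described here after Il11 and Il6.

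The rest of the pathway was described with 6 lists of 68 genes, chosen with earlier results of these data known. Of the other ligands of the family, 4 of 8 were tested and none was called over 8 libraries or without Etv5 shRNA replicate 3. In these fits 0.486% and 2.05% of all tested genes were called lower. Clcf1, a ligand of the CNTF receptor, was at 21.1, 18.4, 12.3 and 20.6 in Etv5 shRNA replicates 1 to 4, against 26.6, 22.4, 21.9 and 24.7 in control replicates 1 to 4, and thus had a higher mean than Lif in both groups. The log2 fold change of Clcf1 was -0.24 (adjusted p 0.211 by limma) without Etv5 shRNA replicate 3, and 7.54% of its 50-base stretches also occur in the overlapping gene AC109138.7. Ctf1, which encodes cardiotrophin-1, averaged 6.33 ± 0.818 in Etv5 shRNA and 8.73 ± 1.12 in control cells (SD, n = 4 each; log2 fold change -0.41, adjusted p 0.523 by limma). Osm, Il27, Ebi3 and Il31 lay under the filter, with no value above 0.478. Of the other receptors, Il11ra1 averaged 1.65 ± 0.462 in Etv5 shRNA and 1.85 ± 0.658 in control cells (SD, n = 4 each) and was not called. Its value is uncertain, since 60.0% of its 50-base stretches also occur in other genes, mainly Gm13305 and Il11ra2. Il27ra was at 0.384 ± 0.159 in Etv5 shRNA and 0.651 ± 0.120 in control cells and was not called, and Il11ra2, Cntfr and Il31ra lay under the filter. The groups of Clcf1, Ctf1 and Il27ra did not overlap over 8 libraries, with Etv5 shRNA lower, as for 7.58% of all tested genes.

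None of 8 tested JAK and STAT genes other than Jak1 and Stat3 was called over 8 libraries or without Etv5 shRNA replicate 3. Of all tested genes, 0.486% and 2.05% were called lower in these fits. The largest log2 fold change over 8 libraries was that of Tyk2 (-0.64), a kinase that also binds gp130, at 5.10, 4.20, 1.49 and 5.55 in Etv5 shRNA replicates 1 to 4, against 8.09, 6.76, 4.47 and 7.02 in control replicates 1 to 4. The change of Tyk2 was -0.33 (log2, adjusted p 0.323 by limma) without Etv5 shRNA replicate 3 and -0.48 (0.0223) without replicate 3 of both groups, where it was the only one of the 8 called. In that last fit 5.33% of all tested genes were called lower. Stat6 was the most abundant of the tested STAT genes, at 27.9 ± 9.53 in Etv5 shRNA and 33.0 ± 2.57 in control cells, and Stat5a was at 2.34 ± 1.18 in Etv5 shRNA and 3.28 ± 0.417 in control cells (SD, n = 4 each); neither was called.

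Of 15 other inhibitors of the pathway, all tested, none was called over 8 libraries or without Etv5 shRNA replicate 3. The shares of all tested genes called lower there were 0.486% and 2.05%. Socs2, a relative of Socs3, was at 2.74, 3.22, 1.1 and 2.66 in Etv5 shRNA replicates 1 to 4, against 4.20, 3.99, 3.73 and 3.88 in control replicates 1 to 4. Its groups did not overlap, as for 7.58% of all tested genes with Etv5 shRNA lower. The log2 fold change of Socs2 was -0.36 (adjusted p 0.0783 by limma) without Etv5 shRNA replicate 3 and -0.38 (0.0298) without replicate 3 of both groups. In the second of these fits 5.33% of all tested genes were called lower. Socs5 averaged 14.9 ± 5.99 in Etv5 shRNA and 18.8 ± 1.19 in control cells, and Pias3, which encodes an inhibitor of STAT3, 4.54 ± 1.46 in Etv5 shRNA and 5.78 ± 0.745 in control cells (SD, n = 4 each), neither called.

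Genes that textbooks give as STAT3 targets had the most calls of the 6 lists, and also the most tested genes. Many of them are also targets of NF-kB or C/EBP factors, so the list does not single out STAT3. Of 19 tested, 2 were lower over 8 libraries (Lcn2 and Cebpd), none higher and 17 not called, where 0.486% of all tested genes were lower. The median log2 fold change of the 19 was -0.32, against -0.11 for all genes. In the 7-library fit 5 were lower (Lcn2, Cebpd, Cebpb, Bcl3 and Pim1), none higher and 14 not called, where 2.05% of all tested genes were lower. The median was -0.14, against 0. Lcn2, the gene of a siderophore-binding protein, was at 1.48, 0.755, 2.24 and 1.45 in Etv5 shRNA replicates 1 to 4, against 76.8, 74.7, 86.6 and 62.2 in control replicates 1 to 4. Cebpd, which encodes C/EBPδ, a factor that STAT3 induces, was at 1.24, 1.30, 2.75 and 1.55 in Etv5 shRNA and 4.6, 5.70, 7.46 and 5.24 in control replicates 1 to 4, with no overlap. Its log2 fold change was -1.33 (adjusted p 0.0338 by limma) over 8 libraries and -1.5 (0.000566) without Etv5 shRNA replicate 3. The call over 8 libraries was lost when any library but Etv5 shRNA replicate 3 was left out, and with 6 other settings (adjusted p 0.0541 to 0.285).

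Bcl3, which encodes a nuclear partner of NF-kB, was at 2.69, 2.16, 1.20 and 2.88 in Etv5 shRNA replicates 1 to 4, against 5.32, 4.93, 5.64 and 5.31 in control replicates 1 to 4. Pim1, a kinase gene, was at 11.4, 9.58, 1.69 and 12 in Etv5 shRNA and 15.8, 15.1, 15.4 and 15.9 in control replicates 1 to 4. Neither gene showed overlap over 8 libraries, as for 7.58% of all tested genes with Etv5 shRNA lower. Both were called without Etv5 shRNA replicate 3 (adjusted p 0.00292 and 0.0279 by limma). Pim1 was not called when 1 further library other than control replicate 3 or Etv5 shRNA replicate 4 was omitted (0.0639 to 0.122) or with equal sums (0.0925). Cebpb was at 78.4, 61.3, 164 and 101 in Etv5 shRNA and 153, 156, 211 and 129 in control replicates 1 to 4. Replicate 3 was here above the other Etv5 shRNA libraries, and without it Cebpb was called lower (log2 fold change -1.02, adjusted p 0.0268 by limma). That call was lost on omitting also replicate 1 or 2 of either group (adjusted p 0.0687 to 0.137 by limma), and with the replicate block (0.0592). Klf4, a pluripotency factor gene (log2 fold change -0.50 over 8 libraries), Timp1, a metalloproteinase inhibitor gene (0.46), and Bcl6, a repressor gene (-0.39), were not called, and Saa3, Hp and Muc1 lay under the filter.

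The list drawn up for cytokine mRNA decay also holds Arid5a and Elavl1, which stabilise such transcripts, and Tnip1, which does not act on mRNA. Of its 9 genes, 1 was lower over 8 libraries and 2 without Etv5 shRNA replicate 3, where 0.486% and 2.05% of all tested genes were lower. The first was Zc3h12a, which encodes Regnase-1, an RNase that cleaves Il6 mRNA, at 2.53, 2.25, 1.35 and 2.75 in Etv5 shRNA replicates 1 to 4, against 15.6, 16.2, 13.8 and 14.5 in control replicates 1 to 4. Its log2 fold change was -2.33 (adjusted p 0.000582 by limma) over 8 libraries. The second was Tnip1, at 14.7 ± 1.96 in Etv5 shRNA and 23.0 ± 0.503 in control cells (SD, n = 4 each; adjusted p 0.131 over 8 libraries and 0.0112 without Etv5 shRNA replicate 3), which encodes an inhibitor of NF-kB signalling. That call was lost on omitting also control replicate 2, Etv5 shRNA replicate 1 or Etv5 shRNA replicate 2 (adjusted p 0.0501 to 0.0523). Zfp36l1, an AU-rich element binding protein gene, averaged 9.88 ± 2.40 in Etv5 shRNA and 13.3 ± 1.66 in control cells and was called lower only without replicate 3 of both groups (adjusted p 0.0473 by limma). Zfp36l2 and Rc3h1 had log2 fold changes of -0.51 and -0.34 over 8 libraries and were not called.

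**Figure D4:**
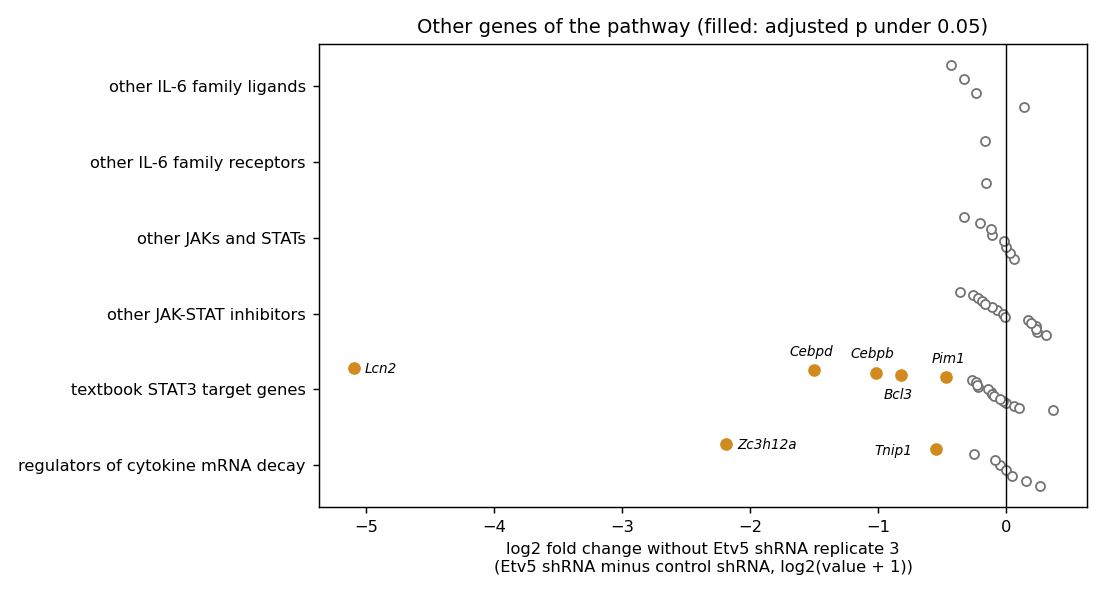
Log2 fold change without Etv5 shRNA replicate 3 (Etv5 shRNA minus control shRNA, log2(value + 1) scale) of each tested gene in the 6 lists, 1 row for each list, with genes spread vertically in order of their value. Filled points, named, have an adjusted p under 0.05 by limma: 5 of 19 STAT3 target genes and 2 of 9 genes of the list for cytokine mRNA decay (Zc3h12a and Tnip1, the second not a decay factor), all lower. In this fit 2.05% of all tested genes were called lower.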

How the data were processed

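RNA of 4T1 cells was measured in 8 libraries, 4 per group, made with the TruSeq RNA kit from total RNA, per the labels' protocols. Reads were aligned with STAR 2.7.10a to mm10, per the submitters' processing notes. The deposited values are a coverage signal. Columns derive from bedGraph coverage tracks, per the file headers, and the numbers behave as mean coverage of a gene per base after depth scaling. How they were averaged is not given in the sources used here. Read depth is unknown, so no counting interval is given.

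Columns were matched to samples by library name. Values were transformed as log2(value + 1), and the 11731 genes that reached 0.5 in 4 or more libraries entered limma (version 3.58.1, R 4.3.3), which modelled an intensity trend and no covariate. P-values were adjusted by Benjamini and Hochberg over all 11731 genes, and genes were called at 0.05. The fits without replicate 3 kept these genes. Deposited values of the 10 genes and Etv5 were also compared by exact two-sided permutation tests, 11 in all, unadjusted. Transcript lengths and coordinates came from GENCODE mouse release M21 (mm10), with the longest transcript taken (97.7% of rows matched). Promoters came from RefSeq on GRCm38.p6.

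The 10 genes and the lists were chosen with earlier results of these data known. Named were the 10 genes, Etv5, and from each list the genes called over 8 libraries or without Etv5 shRNA replicate 3 plus up to 3 with the largest change. A gene that this rule also names is not reported here. Settings tried included other scalings, filters and pseudocounts, the replicate block, array quality weights, removal of length and GC trends (lowess, span 0.3) and leaving out libraries. Quantile normalisation and equal sums without Etv5 shRNA replicate 3 were added after the data were seen. The fit without replicate 3 of both groups was planned as a leave-out setting only, and was set beside the main fits after the data were seen.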

Additional observations from a re-analysis of the deposited data

Results flagged for a closer look

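Within each group of 4, the highest and lowest libraries were set against Dixon's critical value for the gap to the nearest other library. Of 76 groups, over 35 named genes and 3 library measures, 17 passed, where chance gives about 1 in 20, or 3.8. In 13 of the 17 the library was Etv5 shRNA replicate 3.

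Etv5 shRNA replicate 3 was the lowest of its group for Lif (3.24), Il6ra (0.183), Jak1 (5.05), Stat3 (2.91), Stat5a (0.587), Stat6 (13.7), Socs5 (6.01), Bcl6 (1.92) and Rc3h1 (2.2). It was the highest for Timp1, at 99.1 against 34.7 to 36.4 in the other 3. Its sum of values was 390495, it had 13920 genes above 0, and ribosomal protein genes took 21.7% of its sum. Control replicate 3 was the highest of its group for Ctf1 (10.4) and the lowest for Socs5 (17.0) and for genes above 0 (15126). Il6 was at 0.0376 in Etv5 shRNA replicate 1 and at 0 in the other 3 of its group.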

How the results depend on the processing

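Over 8 libraries 58 genes were called. A pseudocount of 0.1 gave 37, removing the length trend 115 and removing the length and GC trend 160. It was 3183 with array quality weights, whose estimation stopped before its tolerance was reached. Leaving out 1 library gave 28 to 368, the highest without Etv5 shRNA replicate 3. Leaving out a further library gave 96 to 1045, the highest without control replicate 3. Without Etv5 shRNA replicate 3 the count was 361 with median-of-ratios scaling, 354 with a pseudocount of 0.1, 1332 with the length and GC trend removed, 409 with quantile normalisation and 212 with equal sums. The cause of these differences was not tested. The replicate block gave 51 over 8 libraries and 291 without Etv5 shRNA replicate 3. Same-numbered libraries deviated together at correlations of 0.549, 0.092, 0.794 and 0.510 for replicates 1 to 4, and not every library correlated best with its own number, so the numbers were not taken as pairs.

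Lif had a negative log2 fold change in all 32 settings, from -1.09 to -0.62, and was called in 14 (adjusted p 2.16e-05 to 0.998), 11 of them among the 14 without Etv5 shRNA replicate 3. Il11, Il6ra, Il6st, Osmr and Socs3 were negative in all 32 as well and were called in 7, 4, 2, 3 and 2. Stat3 and Jak1 were called in none. Median-of-ratios scaling moved the median of all genes from -0.11 to 0.02 and no gene of the pathway was called with it over 8 libraries.

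Leaving out 1 or 2 libraries gave -0.38 to 0.25 for Jak1, -0.31 to 0.02 for Il11ra1, -0.44 to 0.01 for Stat6, -0.01 to 0.64 for Timp1 and -0.47 to 0.06 for Rc3h1. Jak1 turned positive in 15 settings, never called. It was at 0.18 with array quality weights, and without Etv5 shRNA replicate 3 0.19, 0.14 to 0.25 with a further library left out, 0.20 with median-of-ratios scaling, 0.12 with the length and GC trend removed, 0.14 with the replicate block, 0.21 with a pseudocount of 0.1, 0.18 with quantile normalisation and 0.24 with equal sums. Il11ra1 turned to 0.03 with median-of-ratios scaling, 0.13 with quantile normalisation, 0.01 with either trend removal, and 0.00 to 0.02 without Etv5 shRNA replicate 1 or control replicate 3. Without Etv5 shRNA replicate 3, Stat6 turned to 0.03 with equal sums and Rc3h1 to 0.01, 0.00 and 0.04 with median-of-ratios, quantile and equal-sum scaling. With a further library left out, Stat6 reached 0.01, Timp1 -0.01 and Rc3h1 0.06. None of these was called.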
